A study of Mus musculus with 9 samples.

Results

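The HIF subunit genes and the genes of the oxygen-sensing hydroxylases were followed in fetal liver erythroid progenitors. The set held 9 genes: the alpha subunits Hif1a, Hif3a and Epas1, the beta subunit Arnt, the prolyl hydroxylases Egln1, Egln2 and Egln3, the ubiquitin ligase subunit Vhl and the asparaginyl hydroxylase Hif1an. They were found by symbol among 19840 gene names carried by 23041 RefSeq transcript records, and the record with the highest mean level stood for each gene. All 9 genes were present, and 8 of them passed the filter on low values in the cultured libraries (a mean of at least 1 normalised RPKM, reads per kilobase and per M reads divided by 1 scaling factor per library). Epas1 did not pass.

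HIF transcription factors are pairs of an oxygen-regulated alpha subunit and a constant beta subunit encoded by Arnt. When oxygen is present, the EGLN enzymes use it, together with 2-oxoglutarate and iron, to hydroxylate prolines of the alpha subunits, and VHL then binds the hydroxylated protein for ubiquitination and destruction. HIF1AN hydroxylates an asparagine of the alpha subunit and so blocks its binding to the coactivators CBP and p300, while the products of Hif3a include short forms that act as inhibitors of HIF. Egln1 and Egln3 are known HIF target genes in many cell types. RNA-seq measures the transcripts of these genes and not the protein levels on which the pathway acts.

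Each of the 9 conditions had 1 library, all from C57BL/6 fetal livers at embryonic day 13.5 to 14.5. The 3 fresh populations were BFU-E, CFU-E and erythroblasts positive for Ter119 and negative for Kit. BFU-E, the burst-forming erythroid progenitors, are the earlier stage; the gate took, from Kit-positive cells without lineage markers, the 10% with least CD71, the transferrin receptor. CFU-E, the colony-forming progenitors, follow them, and their gate took the 20% with most CD71. The 6 cultured libraries were BFU-E sorted on low CD71 (CD71 sort: water or dexamethasone) or on CD71 together with CD24a, both low (CD71/CD24a sort: water, dexamethasone, DMOG, or dexamethasone with DMOG). All cultures held erythropoietin (2 U/mL), IGF-1 (40 ng/mL) and stem cell factor (100 ng/mL) and ran for 4 h before and 4 h after an agent or water was added. Dexamethasone (Dex, 100 nM) is a synthetic glucocorticoid, and DMOG (dimethyloxalylglycine, 333 µM) is a cell-permeable analogue of 2-oxoglutarate that inhibits the EGLN enzymes and other hydroxylases of that family. The series title speaks of HIF-1 acting together with glucocorticoids in BFU-E self-renewal, which makes the comparisons of Dex, DMOG and both agents the central ones. The oxygen level of the cultures was not given in the sources used here.

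Depth recovered from the RPKM steps was 11.9 and 12.9 M reads in the CD71 cultures, 40.1 and 52.7 M in the 2 libraries with DMOG and 17.4 to 23.7 M in the other 5. All 10 erythroid markers were detected in every library. The labelled populations also carried markers of other cells: the summed level of 10 neutrophil and mast cell genes was 100 in fresh BFU-E, 4.74 in CFU-E and 198 in the erythroblasts, 26.6 in both CD71 sort cultures and 5.35 to 6.51 in the CD71/CD24a sort. In fresh BFU-E 3 of these 10 genes were at 1 or more, against 8 in the erythroblasts. Mpo (71.5) and Prtn3 (24.6) made up most of the BFU-E sum, and S100a8 and Ngp were at 0. Erythroblasts also had the highest macrophage marker sum (32.0, with 6 of 9 markers at 1 or more and Cd163 at 0), against 0.352 to 3.08 elsewhere. The scaling factor was 1.02 to 1.18 for 8 libraries and 0.419 for the erythroblasts, so levels in the erythroblasts depend on that factor. As each library pools many cells, fewer cells of a type and less RNA per cell cannot be told apart.

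The start regions of Egln3, Hif3a and Egln1 are printed because these genes moved most with the treatments described below. Each run is the 250 bases before the RefSeq start on the gene's own strand (GRCm38.p6, a later build than the mm9 of the files), written 5′ to 3′ in lower case. Capitals mark ACGTG or GCGTG on either strand, the core of the sequence that HIF binds; a core on the other strand reads CACGT or CACGC.
Egln3, chr12:54203875-54204124, minus strand: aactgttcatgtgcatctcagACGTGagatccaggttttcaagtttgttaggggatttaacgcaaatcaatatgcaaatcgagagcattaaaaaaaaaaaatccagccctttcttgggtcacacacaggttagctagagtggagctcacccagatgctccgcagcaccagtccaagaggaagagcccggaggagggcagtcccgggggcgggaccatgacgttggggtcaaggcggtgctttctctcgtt
Hif3a, chr7:17062428-17062677, minus strand: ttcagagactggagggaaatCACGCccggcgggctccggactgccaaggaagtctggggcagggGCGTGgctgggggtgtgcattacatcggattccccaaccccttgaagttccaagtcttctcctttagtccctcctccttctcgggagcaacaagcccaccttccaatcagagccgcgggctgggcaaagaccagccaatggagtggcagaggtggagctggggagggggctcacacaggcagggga
Egln1, chr8:124949255-124949504, minus strand: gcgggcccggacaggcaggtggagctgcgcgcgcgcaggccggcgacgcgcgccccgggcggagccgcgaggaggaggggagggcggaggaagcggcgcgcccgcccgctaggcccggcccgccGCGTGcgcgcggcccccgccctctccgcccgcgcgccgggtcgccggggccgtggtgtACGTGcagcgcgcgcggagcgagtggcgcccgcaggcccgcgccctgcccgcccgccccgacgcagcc
The Egln3 run held 1 core, 229 bases before the start. Hif3a held 2 and Egln1 held 2. RefSeq entries were found for 8 of the 9 genes, and 6 of those 8 held at least 1 core. Of all 32851 start regions of the same length, 38.6% held one. These matches describe letters only, and no binding data were used.

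The alpha subunit genes differed widely in level and in pattern. Hif3a transcripts were at 56.2 normalised RPKM in fresh BFU-E, 58.4 in CFU-E and 63.2 in the erythroblasts. In culture they were at 38.3 (water) and 97.3 (Dex) for the CD71 sort. After the CD71/CD24a sort Hif3a was at 18.1 with water, 54.7 with Dex, 21.5 with DMOG and 58.7 with both agents. The 3 cultures with Dex lay between 54.7 and 97.3 and the 3 without it between 18.1 and 38.3. How many of all genes separate in this way was not counted. In the order of its levels, CD71/CD24a Dex, fresh BFU-E, CFU-E and both agents followed one another with exact 95% intervals of each neighbour ratio that held 1 (these intervals cover counting error alone and take each read as a separate molecule). The ends of that run differed beyond counting error, with a ratio of both agents to CD71/CD24a Dex of 1.07 (1.03 to 1.12).

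Hif1a, the most widely expressed oxygen-regulated alpha subunit, had another order. Its transcripts were at 6.44 in fresh BFU-E, 5.64 in CFU-E and 2.69 in the erythroblasts. The CD71 cultures had 11.8 with water and 9.44 with Dex. In the CD71/CD24a sort the 4 libraries were at 18.9 with water, 18.6 with Dex, 18.2 with DMOG and 18.7 with both. All 4 CD71/CD24a libraries stood above both CD71 cultures, which stood above all 3 fresh populations. The share of all genes with that order was not counted. The 3 neighbour ratios among the 4 CD71/CD24a libraries all had intervals that held 1. Of the sequence of Hif1a, 8.37% is shared with other annotated genes, mainly Gm15283, an antisense gene that overlaps it by 330 bases, so a part of its reads could belong to another transcript.

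Epas1, which encodes HIF-2 alpha and is known mainly from endothelium and the erythropoietin-producing cells of kidney and liver, was close to absent. It had 0 to 35 recovered reads per library, a level of 0 to 0.129 normalised RPKM. The erythroblast library had 0 reads, which allows up to a level of 0.0746 at the limit of 3 reads. Every one of its 8 neighbour ratios had an interval that held 1. Of 12 endothelial markers 2 to 5 were at 1 or more per library, and Egfl7 was the highest of them in each of the 9 libraries.

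Set side by side per length, Hif3a made up 89.6% of the summed alpha subunit level in fresh BFU-E, 91.2% in CFU-E and 95.9% in the erythroblasts. It made up 76.3% in the CD71 water culture and 91.1% with Dex. In the CD71/CD24a sort the share was 48.7% with water, 74.6% with Dex, 54.0% with DMOG and 75.7% with both. The ratio of Hif3a to Hif1a was thus 8.72 in fresh BFU-E and 0.957 (exact 95% interval 0.882 to 1.04) in CD71/CD24a water, the only library where Hif1a stood above Hif3a, and within counting error. These shares compare a single record per gene, and isoforms of Hif3a were not told apart.

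**Figure D1:**
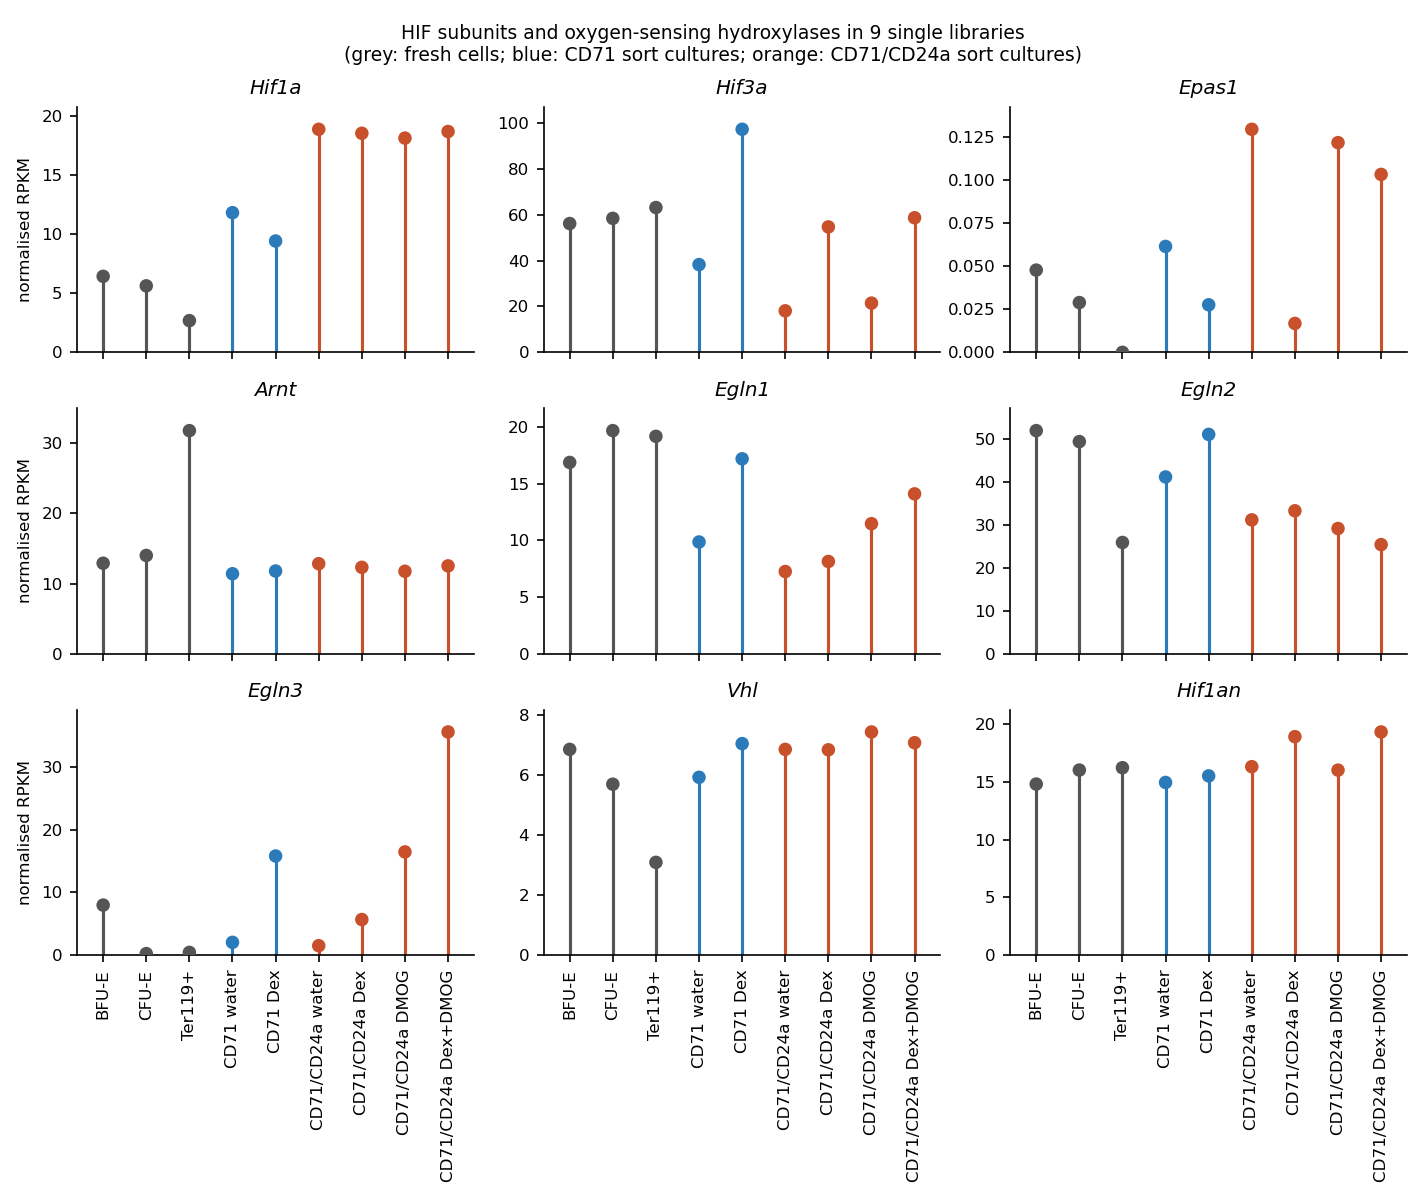
Level of each of the 9 genes in normalised RPKM (vertical axis, a separate linear scale from 0 for each gene) in the 9 single libraries; grey, fresh cells; blue, CD71 sort cultures; orange, CD71/CD24a sort cultures; there are no replicates and no error bars. Egln3 ranges from 0.219 in CFU-E to 35.6 with both agents, Hif1an only from 14.8 to 19.3, and the high Arnt value of the erythroblasts (31.8) depends on that library's scaling factor and falls below CFU-E without it.

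Arnt, the shared beta subunit, spanned a 1.13-fold range over the cultures. It lay between 11.4 and 12.8 in the 6 cultured libraries, at 12.9 in fresh BFU-E and at 14.0 in CFU-E. The erythroblasts had 31.8, a ratio of 2.27 to CFU-E (exact 95% interval 2.09 to 2.46), and on the deposited scale without the factor the difference was -0.18 in place of 1.13 on the log2 scale, while the median of all genes was -1.30 in place of -0.21. Arnt stood above that median on both scales. Small differences between cultures lay beyond counting error, with a ratio of CD71/CD24a to CD71 of 1.13 at matched water (exact 95% interval 1.02 to 1.24) and of DMOG to water of 0.916 (0.854 to 0.982).

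Among the prolyl hydroxylases, Egln2 was the most abundant in 8 of the 9 libraries. Its level was 52.0 in fresh BFU-E, 49.4 in CFU-E, 25.9 in the erythroblasts, and 41.2 and 51.1 in the CD71 sort without and with Dex. The CD71/CD24a libraries were lower, at 31.2 with water, 33.3 with Dex, 29.2 with DMOG and 25.4 with both. Egln2 thus spanned a 2.05-fold range over all 9 libraries, against 163-fold for Egln3.

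Egln1, the main oxygen sensor of most cells, was at 16.9 in fresh BFU-E, 19.7 in CFU-E and 19.2 in the erythroblasts. In the CD71 sort it was at 9.86 with water and 17.2 with Dex. In the CD71/CD24a sort it was at 7.25 with water, 8.14 with Dex, 11.5 with DMOG and 14.1 with both. The Dex culture of the CD71 sort reached the fresh range, and all other cultures stood below it.

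Egln3, a hydroxylase gene strongly induced by low oxygen in many cell types, was the most variable of the 9 genes. Its level was 7.96 in fresh BFU-E (412 reads), 0.219 in CFU-E (15 reads) and 0.411 in the erythroblasts (8 reads). The CD71 sort had 2.02 with water (65 reads) and 15.8 with Dex (565 reads). The CD71/CD24a sort had 1.48 with water (85 reads), 5.65 with Dex (333 reads), 16.4 with DMOG (2078 reads) and 35.6 with both agents (5797 reads). Both water cultures were the lowest of their sort, and the library with both agents was the highest of all 9. The neighbours CFU-E and erythroblasts, the 2 water cultures, and CD71 Dex and CD71/CD24a DMOG could not be told apart within counting error.

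The make-up of the EGLN transcripts differed between libraries. In the erythroblasts Egln1 was 42.2% and Egln2 56.9% of the summed EGLN level, against 28.4% and 71.3% in CFU-E, with Egln3 at 0.903% and 0.315%. Egln3 was 10.4% in fresh BFU-E and 3.71% in the CD71/CD24a water culture. It was 12.0% with Dex, 28.8% with DMOG and 47.4% with both, where Egln2 was 33.8%. The library with both agents was the only one in which Egln3 was above Egln2.

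**Figure D2:**
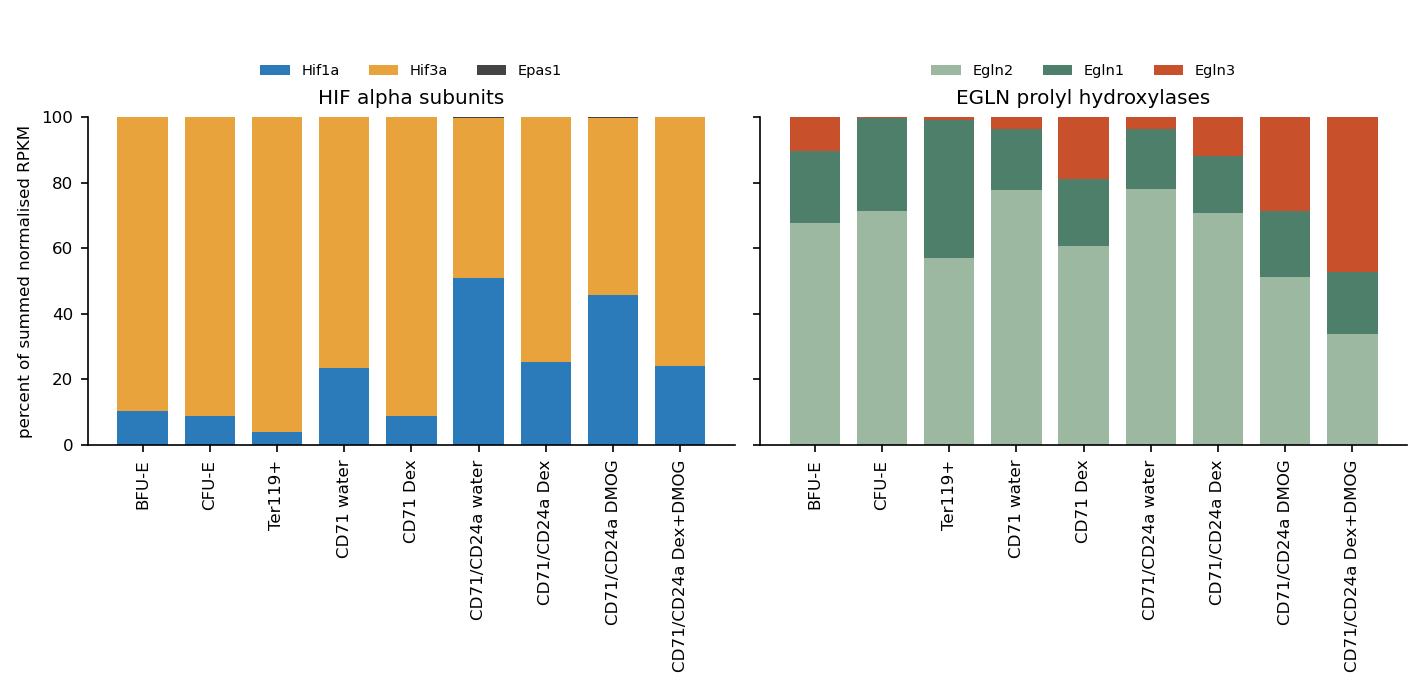
Percent of summed normalised RPKM (vertical axis, from 0 to 100) taken by each alpha subunit gene (left) and each EGLN gene (right) in the 9 single libraries. Hif3a takes 48.7% to 95.9% of the alpha subunit sum and is lowest in CD71/CD24a water, while Egln3 takes 0.315% to 47.4% of the EGLN sum and is highest with both agents; Epas1 is too low to be seen.

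Vhl and Hif1an spanned 1.26-fold and 1.29-fold ranges over the cultures, against 1.13-fold for Arnt. Vhl, the substrate receptor of the ligase that removes hydroxylated HIF alpha, was at 6.86 in fresh BFU-E, 5.70 in CFU-E, 3.09 in the erythroblasts and 5.93 to 7.44 in the cultures. Hif1an, the asparaginyl hydroxylase, was at 14.8, 16.0 and 16.2 in the fresh populations and 14.9 to 19.3 in the cultures. For each of these genes 7 of 8 neighbour ratios had intervals that held 1.

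The comparison of BFU-E with CFU-E asked what differs between the early and the later progenitor. With 1 library each there is no test, and a fixed size of 2-fold on log2(normalised RPKM + 1) was used, a scale that understates the change of low genes. By that rule 15.6% of 9947 expressed genes differed, 12.3% being lower and 3.32% higher in CFU-E. Of the 8 expressed members only Egln3 passed, with a ratio of CFU-E to BFU-E of 0.0275 (exact 95% interval of counting error 0.0153 to 0.0460). The other 7 lay between ratios of 0.831 (Vhl) and 1.17 (Egln1). BFU-E also had the higher sums of megakaryocyte (94.9 and 24.3), endothelial (119 and 70.9) and stromal markers (8.96 and 0.248) and of hepatocyte markers (34.0 and 12.3), beside the neutrophil markers above, and their part in the Egln3 difference was not tested.

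Between CFU-E and erythroblasts 51.4% of 9530 expressed genes passed 2-fold, 22.6% higher and 28.8% lower in erythroblasts. Of the 7 members expressed there, only Arnt passed, higher in erythroblasts by 1.13 on the log2 scale with the scaling factor and lower by the same measure (-0.18) without it. Hif1a (ratio 0.477, interval 0.381 to 0.595), Egln2 (0.524, 0.471 to 0.583) and Vhl (0.542, 0.410 to 0.709) were lower in erythroblasts on both scales, without passing 2-fold on the log2 scale with the factor. The factor moved the median of all genes by 1.09 on the log2 scale (from -0.21 with it to -1.30 without), and the share of higher genes among those past 2-fold was 44.0% with it and 12.3% without. With the factor Hif3a was at 0.11 and Hif1an at 0.02 on the log2 scale, and without it they were at -1.23 and -1.24, close to the shift of all genes.

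Between BFU-E and erythroblasts 57% of 10249 genes passed, 21.2% higher and 35.8% lower in erythroblasts. Of the 8 expressed members 1 was higher and 2 were lower. Arnt was higher (1.24, and -0.03 without the factor), and Egln3 (-2.67) and Hif1a (-1.01) were lower. The share of higher genes was 37.1% with the factor and 12.6% without. Both erythroblast comparisons share that library, and the BFU-E library is shared with the comparison to CFU-E.

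Fresh BFU-E and the BFU-E of the CD71 water culture carry the same CD71 gate in the labels, and the culture lasted 4 h plus 4 h. By the 2-fold rule 15.3% of 10060 genes differed, 6.27% higher and 9.06% lower in culture. Of the 8 expressed members only Egln3 passed, with a ratio of culture to fresh of 0.253 (exact 95% interval 0.192 to 0.331). Hif1a was at a ratio of 1.84 (1.64 to 2.06), Egln1 at 0.584 (0.521 to 0.653) and Hif3a at 0.681 (0.633 to 0.733), none past 2-fold. Marker sums of other cells were also lower in culture, for neutrophil and mast cell (100 fresh and 26.6 in culture), hepatocyte (34.0 and 3.45), endothelial (119 and 59.5), megakaryocyte (94.9 and 48.1) and stromal genes (8.96 and 2.50). By the 2-fold rule 6 of 6 expressed hepatocyte and 4 of 5 endothelial markers were lower, while the globin gene Hbb-bt was higher by 5.75 on the log2 scale. Their part in the members' values was not tested.

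The effect of Dex was tested over 3 pairs of cultures, each pair divided from the same sorted cells. Of the 3 pairs, 2 came from the CD71/CD24a sort, whose arms shared those cells, so they are not 3 separate sorts. The test was limma on log2(normalised RPKM + 1) with Benjamini-Hochberg adjustment over 9535 genes. Of these 2.02% were called at an adjusted p under 0.05, 1.39% higher and 0.629% lower. Of the 8 members tested 2 rose and 0 fell. Hif3a rose by 1.43 (SE 0.074, 95% interval 1.25 to 1.60, adjusted p = 0.00100), and was higher with Dex in 3 of 3 pairs. Its ratios were 2.54 (CD71 sort), 3.02 (CD71/CD24a sort) and 2.73 with DMOG present, a narrow range.

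Egln3 rose by 1.66 (SE 0.25, 95% interval 1.05 to 2.26, adjusted p = 0.0313, limma), also in 3 of 3 pairs. Its ratios were far apart: 7.83 (exact 95% interval 6.04 to 10.3) for CD71 cultures, 3.82 (2.998 to 4.90) for those of the CD71/CD24a sort and 2.16 (2.06 to 2.28) with DMOG present. In the limma fit with no filter on low values Egln3 was no longer called (adjusted p = 0.211). Leaving out the CD71 Dex or the CD71 water library left the other CD71 library fitted exactly by the sort term. The Dex estimates were then those of the CD71/CD24a libraries alone, so these fits add no separate evidence. With the 4 CD71/CD24a libraries alone 13.2% of 9509 genes were called by limma, 5.48% higher and 7.71% lower. The same 2 members rose, Hif3a by 1.48 (adjusted p = 1.33e-08) and Egln3 by 1.25 (adjusted p = 8.30e-07). The spread in that fit rests mostly on a prior shared over all genes.

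The other members were not called with Dex. Egln1 was at 0.39 (95% interval 0.09 to 0.69, adjusted p = 0.211 by limma), with ratios of 1.74, 1.12 and 1.23 in the CD71, CD71/CD24a and CD71/CD24a with DMOG pairs. Hif1an was at 0.17 (interval -0.01 to 0.35), Egln2 at 0.07 (-0.18 to 0.32), Vhl at 0.05 (-0.16 to 0.26), Arnt at 0.02 (-0.15 to 0.20) and Hif1a at -0.09 (-0.31 to 0.12). Only the interval of Egln1 among these left out 0, and the tests do not show that the others were unaffected. In the same order of pairs, Egln2 had ratios of 1.24 (exact 95% interval 1.15 to 1.35), 1.07 (0.993 to 1.15) and 0.871 (0.829 to 0.916). Those of Hif1a were 0.797 (0.713 to 0.891), 0.982 (0.922 to 1.05) and 1.03 (0.990 to 1.07). For Egln2 the average thus joins pairs that differ in direction beyond counting error. In the limma fit of the 4 CD71/CD24a libraries the intervals of Hif1an (0.07 to 0.39, adjusted p = 0.0539) and Egln1 (0.04 to 0.39, adjusted p = 0.104) left out 0, without a call.

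**Figure D3:**
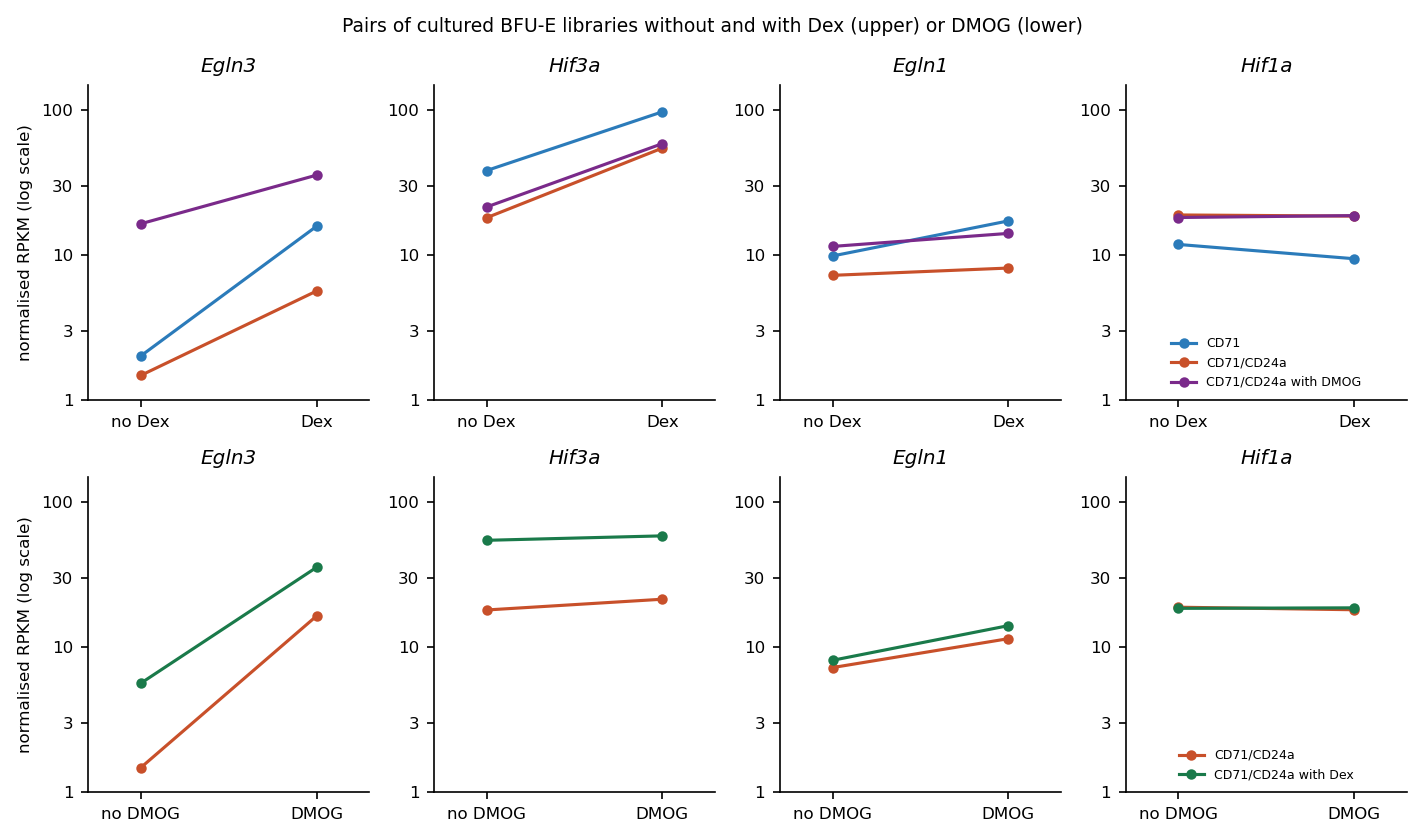
Normalised RPKM (vertical log axis) of Egln3, Hif3a, Egln1 and Hif1a in pairs of single cultured libraries without and with Dex (upper row, 3 pairs) and without and with DMOG (lower row, 2 pairs); each line joins a pair and there are no error bars. Egln3 is higher at the right end of every line, from 1.48 with water to 35.6 with both agents, Hif3a is higher at the right end of each Dex line, and Hif1a stays between 18.2 and 18.9 in the CD71/CD24a sort.

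DMOG was tested over the 2 pairs of the CD71/CD24a sort in the same 6-library limma fit. Only 0.021% of 9535 genes (2 genes) were called, while 347 had an unadjusted p under 0.05. None of the 8 members was called, and 2 had an unadjusted p under 0.05. Egln3 was at 2.64 (SE 0.30, 95% interval 1.90 to 3.37, adjusted p = 0.0915) and Egln1 at 0.66 (SE 0.15, interval 0.29 to 1.03, adjusted p = 0.719). The level of Egln3 with DMOG was 11.1 times that with water (exact 95% interval of counting error 8.93 to 13.9), and 6.30 times (5.63 to 7.05) where Dex was present. Egln1 was at 1.58 and 1.73 times.

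With the 4 CD71/CD24a libraries alone, an alternative listed with the main fit, 1.46% of 9509 genes were called, 0.989% higher and 0.473% lower. There Egln3 (2.64, SE 0.094, adjusted p = 9.21e-10) and Egln1 (0.66, SE 0.082, adjusted p = 6.23e-04) passed, 2 of 8 members, both higher in 2 of 2 pairs. Their differences are the same in both fits, since only these 4 libraries carry the DMOG contrast, and the fits differ in the spread they set it against. In the 4-library fit that spread rests mostly on a prior shared over all genes. Without the CD71 Dex or the CD71 water library the DMOG estimates were again those of the 4 libraries, so these fits add no separate evidence. Without the library with both agents or that with DMOG, the Egln3 difference was 3.08 or 2.20. Egln3 was called in 6 of 14 settings of the DMOG test. It was not called without the CD71/CD24a Dex library (adjusted p = 0.0974, limma), with a pseudocount of 0.1 (0.184) or with no filter (0.878). The tests of Dex and of DMOG share the water culture of this sort.

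The other members had DMOG differences with intervals that held 0 in the 6-library fit. Hif3a was at 0.17 (95% interval -0.05 to 0.38), Vhl at 0.07 (-0.19 to 0.33), Hif1an at 0.0022 (-0.22 to 0.23), Hif1a at -0.02 (-0.29 to 0.24), Arnt at -0.05 (-0.26 to 0.17) and Egln2 at -0.23 (-0.54 to 0.07), all with an adjusted p of 0.999 by limma. In the 4-library fit the intervals of Hif3a (0.02 to 0.32, adjusted p = 0.379) and Egln2 (-0.40 to -0.07, adjusted p = 0.217) left out 0, without a call. Egln2 was lower with DMOG in both pairs, at ratios of 0.936 (exact interval 0.878 to 0.998) and 0.763 (0.718 to 0.811). The DMOG libraries were also the deepest (40.1 and 52.7 M reads against 18.4 and 19.0), and the part of depth in these values was not tested.

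**Figure D4:**
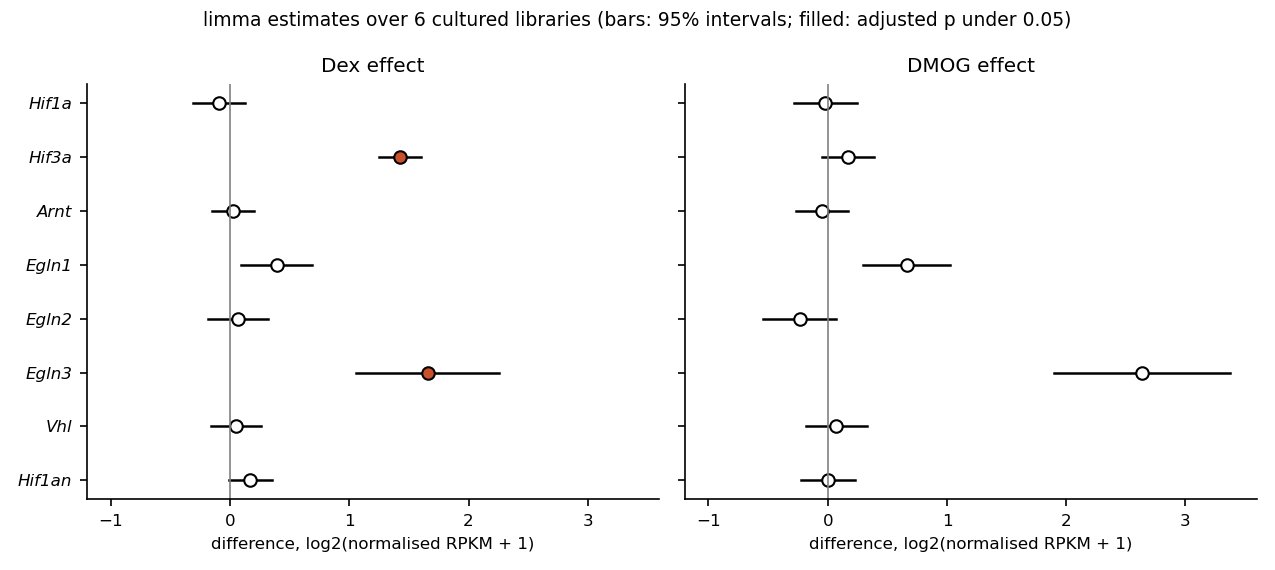
limma differences on the log2(normalised RPKM + 1) scale (horizontal axis) with 95% intervals for the 8 expressed members over 6 cultured libraries, for Dex (left) and DMOG (right); filled points have an adjusted p under 0.05. Hif3a (1.43) and Egln3 (1.66) are filled for Dex, none is filled for DMOG, and Egln3 at 2.64 and Egln1 at 0.66 have DMOG intervals above 0.

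Both agents together, against water, gave ratios of 24.0 for Egln3 (exact 95% interval 19.4 to 30.1), 3.24 for Hif3a (3.02 to 3.48) and 1.95 for Egln1 (1.78 to 2.13). Whether the Dex difference changed with DMOG present was tested as the product of the agents. It called 0% of 9535 genes with limma, with 275 genes at an unadjusted p under 0.05. For Egln3 the product was -0.88 (95% interval -1.60 to -0.16, unadjusted p = 0.0204, adjusted p = 0.999) and not past the adjusted threshold. The side without DMOG in that product takes in both sorts, and the Dex differences of Egln3 were 2.48 in the CD71 pair, 1.42 in the CD71/CD24a pair and 1.07 in the CD71/CD24a pair with DMOG, so the product mixes the sort with DMOG. For Hif3a it was -0.02 (interval -0.45 to 0.40) and for Egln1 -0.17 (-0.71 to 0.37).

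The Dex step was also set against the sort, in a test added after the data were seen. In that limma fit 6.03% of 9535 genes were called, 2.55% with a lower Dex difference in the CD71/CD24a sort, and of the 8 members Egln3 and Egln1 were called, both with a smaller Dex difference in the CD71/CD24a sort. The difference between sorts was -1.23 for Egln3 (SE 0.17, adjusted p = 0.00129) and -0.53 for Egln1 (SE 0.14, adjusted p = 0.0458). Hif3a was at 0.15 (interval -0.11 to 0.42). The intervals of Hif1a (0.31, 0.03 to 0.59) and Egln2 (-0.35, -0.65 to -0.06) left out 0, without a call. For Egln1 the call was lost with a pseudocount of 0.1, with summed records and with no filter (adjusted p = 0.0614, 0.0603 and 0.241), and for Egln3 with no filter (0.219). Here the CD71 sort was represented by 1 pair and the CD71/CD24a sort by 2, 1 of them with DMOG. With 1 residual degree of freedom, the spread in that fit rests mostly on a prior shared over all genes.

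The sorts themselves differed widely, with 54.2% of 9535 genes called by limma, 29.1% higher and 25% lower in the CD71/CD24a sort. Against that background 4 of 8 members were called. Hif1a was higher in the CD71/CD24a sort (0.77, SE 0.11, adjusted p = 0.00293), while Hif3a (-0.93, SE 0.090, adjusted p = 0.00154), Egln1 (-0.70, SE 0.15, adjusted p = 0.0104) and Egln2 (-0.50, SE 0.13, adjusted p = 0.0178) were lower. The call of Egln2 was lost with no filter (adjusted p = 0.0610) and without the scaling factor (0.0862), and without the factor Arnt (0.27, adjusted p = 0.0425) and Hif1an (0.36, adjusted p = 0.0150) were called higher. Egln3 was at -0.81 (adjusted p = 0.0630). At matched water the ratios of CD71/CD24a to CD71 were 1.60 for Hif1a (exact 95% interval 1.46 to 1.75), 0.473 for Hif3a (0.431 to 0.518) and 0.735 for Egln1 (0.648 to 0.837). Without the CD71/CD24a Dex library 2182 genes and 2 members were called in place of 5165 and 4, and without the CD71/CD24a water library 2678 genes; Hif1a and Hif3a were called in both. The sort and the culture experiment cannot be told apart. Globin Hbb-bt was at 822 and 371 in the CD71 cultures and at 37.5 to 170 in the CD71/CD24a cultures. Hepatocyte marker sums were 3.45 and 6.11 in the CD71 cultures and 12.3 to 15.5 in the CD71/CD24a cultures, and 3 of 4 tested were called higher there (Alb, 1.68; Afp, 1.37; Trf, 0.69). Of 4 endothelial markers 2 were higher (Tek and Pecam1) and 2 lower (Eng and Egfl7), and both neutrophil and mast cell markers tested were lower. The part of these markers in the members' differences was not tested.

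Partners of the pathway were read from lists drawn up with earlier results of these data known. The VHL ligase partners, which include the elongins and the ubiquitin-conjugating enzymes, had 0 of 10 called with Dex by limma (2 at an unadjusted p under 0.05) and 0 of 10 with DMOG (0 unadjusted). Factors that stabilise or remove HIF alpha and the hydroxylases, such as Hsp90 and the Siah ligases, had 0 of 18 called with Dex (4 unadjusted) and 0 of 18 with DMOG (1 unadjusted). Enzymes that make or use 2-oxoglutarate, succinate and fumarate, the co-substrate and inhibitors of the EGLN enzymes, had 0 of 18 called with either agent by limma (0 unadjusted in both). Other bHLH-PAS genes had 0 of 3 called with either (1 unadjusted with Dex, 0 with DMOG). In the fit of the 4 CD71/CD24a libraries some were called with Dex: the elongin gene Elob fell (-0.61, adjusted p = 7.06e-04), and of the succinate dehydrogenase genes Sdha rose (0.26, adjusted p = 0.0458) and Sdhb fell (-0.25, adjusted p = 0.0356). That fit called none of these 4 lists' genes with DMOG (1, 3, 0 and 0 at an unadjusted p under 0.05, in the order above).

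Of 10 HIF coactivators and competitors for their binding domain, 1 rose and 1 fell with Dex, against 1.39% and 0.629% of all genes. Cited2, which competes with HIF alpha for CBP and p300, rose by 0.53 (SE 0.068, adjusted p = 0.0173, limma), with levels of 23.4 and 35.4 in the CD71 pair and 15.2 and 21.5 in the CD71/CD24a pair. Its relative Cited4 fell by 0.95 (SE 0.089, adjusted p = 0.00578), with levels of 86.4 and 51.0, and 24.4 and 11.9. In the fit of the 4 CD71/CD24a libraries Ncoa3 also fell with Dex (-0.29, adjusted p = 0.0396), and Pkm, a glycolytic enzyme gene on that list, rose with DMOG (0.61, adjusted p = 6.73e-04). A further list had 7 tested genes. It held procollagen prolyl and lysyl hydroxylases, which like the EGLN enzymes need 2-oxoglutarate, and the subunit gene P4hb. Of these 7 genes, P3h2 rose with Dex (0.82, SE 0.10, adjusted p = 0.0160, limma). In the fit of the 4 CD71/CD24a libraries P4ha1 (1.21, adjusted p = 1.90e-06) and Plod2 (0.86, adjusted p = 7.08e-04) rose with DMOG, P4ha1 from 5.15 to 12.4.

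Between fresh BFU-E and CFU-E, by the 2-fold rule that 3.32% of all expressed genes passed as higher and 12.3% as lower, 1 of 10 VHL ligase partners was higher (the elongin gene Eloc, 1.26 on the log2 scale) and 0 lower, and 0 of 18 stability factors passed in either direction. The coactivator list had 1 of 12 higher in CFU-E (Cited4, 99.4 and 230) and 2 lower (Ncoa3, a steroid receptor coactivator, at -1.77, and Cited2, 20.6 and 6.81). Of the procollagen hydroxylases 2 of 8 were lower (P3h2 at -1.34 and Plod1 at -1.18). Of 30 expressed HIF targets other than Egln1 and Egln3, 2 were higher and 5 lower, among them Stc2 (-2.44) and the chemokine receptor gene Cxcr4 (-2.12).

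Known HIF target genes were a list of 37, of which 34 were tested and 2 are Egln1 and Egln3 themselves. Over all genes 1.39% rose with Dex and 0.021% with DMOG in the 6-library fit. In the fit of the 4 CD71/CD24a libraries 5.48% rose and 7.71% fell with Dex, and 0.989% rose with DMOG. With Dex 5 of 34 rose, among them Egln3, the mTOR inhibitor gene Ddit4 (1.95, SE 0.20, adjusted p = 0.00843), the phosphofructokinase regulator gene Pfkfb4 (1.31, adjusted p = 0.0374) and Ndrg1 (0.86, adjusted p = 0.0141, named after its value was seen), and the list's median difference was -0.021 against -0.015 over all genes. In the fit of the 4 CD71/CD24a libraries 7 of 34 rose and 8 fell with Dex, among the latter the transferrin receptor gene Tfrc (-0.42, adjusted p = 0.00176, named after its value was seen). With DMOG only Ankrd37 was called in the 6-library fit (3.16, SE 0.17, adjusted p = 0.0103, limma), from 1.07 to 20.3 without Dex and from 1.14 to 15.8 with it. The median of the 34 was 0.54, and that of the 32 other than Egln1 and Egln3 was 0.51, against -0.0028 over all genes. In the fit of the 4 CD71/CD24a libraries 24 of 34 rose with DMOG and 0 fell, or 22 of 32 without Egln1 and Egln3, with Bnip3 (1.52, adjusted p = 2.58e-07), a mitophagy receptor gene, from 2.65 to 9.99. In that fit, 1 of 10 erythroid markers fell with DMOG (Hba-a1, -0.85, adjusted p = 0.00139) and 1 of 7 megakaryocyte markers rose (Pf4, 0.90, adjusted p = 3.58e-04), and their part was not tested.

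Cell type markers also moved with Dex. Over all genes 2.02% were called in the 6-library fit and 13.2% in the fit of the 4 CD71/CD24a libraries. In the 6-library fit Hbb-bt fell by 1.57 (SE 0.18, adjusted p = 0.0120) and Kit rose by 0.76 (SE 0.099, adjusted p = 0.0196), 2 of 10 erythroid markers, and none of the tested endothelial (4), hepatocyte (4), neutrophil and mast cell (2), megakaryocyte (7) and stromal (2) markers was called by limma (3 megakaryocyte and 1 hepatocyte marker at an unadjusted p under 0.05). The fit of the 4 CD71/CD24a libraries called 4 of 10 erythroid markers (Kit higher, Hbb-bt, Tfrc and Klf1 lower), 3 of 7 megakaryocyte markers lower (Gp5, -0.48; Vwf, -0.36; Pf4, -0.36) and the hepatocyte marker Apoa1 higher (0.49). The summed erythroid level was 1748 (water) and 1108 (Dex) for CD71 cultures and 664 and 529 for those of CD71/CD24a, and the part of these markers in the rise of Hif3a and Egln3 was not tested.

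The genes most like each member over the 9 libraries were found by Pearson's r of log2(normalised RPKM + 1) among 9697 genes, given as a description, since the libraries share cells and differ in depth. For Egln3 they were Il10ra (0.961), Ddit4 (0.936) and Ppp1r3b (0.916). Ddit4 was at 3.91 in fresh BFU-E, 0.939 in CFU-E, 3.09 with water, 12.2 with Dex, 10.7 with DMOG and 32.8 with both in the CD71/CD24a sort, so it was also highest with both agents. For Hif3a they were Tle4 (0.934), Ilkap (0.893) and Cyth3 (0.883), and for Egln1 Ampd2 (0.971), Pfkl (0.931) and Atp5k (0.908). Tle4 was at 6.55 and 15.6 without and with Dex for CD71 cultures and at 5.38 and 13.0 for those of CD71/CD24a. Hif1a was closest to M6pr (0.996), Egln2 to Eef2 (0.987), Vhl to Cdip1 (0.989), Hif1an to Ndufv2 (0.927) and Arnt to Snx32 (0.998), the last pair being far highest in the erythroblasts on the scaled values. Between members the highest r was 0.799 for Hif1a with Vhl and the lowest -0.949 for Arnt with Vhl, both over the same 9 libraries. In the erythroblasts Arnt was at its highest (31.8) and Hif1a (2.69) and Vhl (3.09) were at their lowest. These levels depend on the scaling factor of that library, and r without it was not computed.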

How the data were processed

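Paired-end mRNA libraries were profiled, 1 per condition. The deposited values are RPKM computed by the authors on mm9, a build named in the submitters' processing notes. The sources used here do not name the aligner or the counter and do not say whether strand was used. In the 4 CD71/CD24a files an exact 1 stood where other files had 0 and was read as 0.

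Symbols came from RefSeq (GRCm38.p6) for 22397 records and GENCODE for 114, and 530 had none. The record with the highest mean stood for each symbol. Each library was divided by its median ratio over 6888 genes (a factor of 0.419 for Ter119-positive cells and 1.02 to 1.18 otherwise). Depth came from steps between low RPKM values, with 67.0% to 69.9% of values up to 10 reads whole within 0.1 reads against 20% by chance. Exact (Clopper-Pearson) 95% intervals of ratios rest on those reads.

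Cultured libraries were tested with limma 3.58.1 (trended empirical Bayes, R 4.3.3) on log2(normalised RPKM + 1), for genes with a mean of at least 1, at a Benjamini-Hochberg adjusted p under 0.05. Dex was tested with the culture pair as a block, since the labels' protocols divide 1 batch of sorted cells between arms; with 1 library per group, deviations within groups could not be correlated. DMOG and the sort came from the same fit. P-values measure only the spread between these libraries, and most of the spread set against a gene comes from a prior shared over all genes. The fit of Dex, DMOG and sort had 2 residual degrees of freedom against 4.31 from that prior. Dex by DMOG had 1 against 11.6, and Dex by sort had 1 against 10.5. The fit of the 4 CD71/CD24a libraries alone also had 1 residual degree of freedom, which is the Dex by DMOG contrast within that sort. Its small p-values thus rest mostly on the prior and not on separate replicates. The code was tested on simulated data. Fresh libraries were compared by size (2-fold) with no test.

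Named genes were all 9 members, at most the 4 largest called genes per list and effect (in fresh libraries, past 2-fold), and the 3 genes most correlated with each member. Members and lists were chosen with earlier results of these data known, and the test of Dex by sort was added after seeing the data. Alternatives were another pseudocount, no filter, no factor, summed records, an exact 1 kept, each library left out, no block and the 4 CD71/CD24a libraries alone. For DMOG the alternative of no block kept the sort and left out Dex as a covariate. 1 called gene of the HIF target list is not reported here.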

Additional observations from a re-analysis of the deposited data

Results flagged for a closer look

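Dex differences of Egln3 and Egln1 differed between the sorts by a test of the difference itself, a limma interaction over the 6 cultured libraries that was added after seeing the data. For Egln3 the Dex difference was smaller in the CD71/CD24a sort than in the CD71 sort, the first minus the second being -1.23 on the log2 scale (95% interval -1.60 to -0.86, adjusted p = 0.00129, and 7.09e-04 to 0.219 over its 5 alternatives). The log2 Dex difference of Egln3 was 2.48 in the CD71 pair, 1.42 in the CD71/CD24a pair and 1.07 with DMOG. For Egln1 the difference was -0.53 (95% interval -0.84 to -0.23, adjusted p = 0.0458, and 0.0401 to 0.241 over its alternatives), with Dex differences of 0.75, 0.15 and 0.28. The CD71 sort has 1 pair of libraries, and the sort and its culture experiment cannot be told apart.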

How the results depend on the processing

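With Dex 193 genes and 2 members were called; no filter gave 21 and 1, no replicate block 14 and 0 (Hif3a adjusted p = 0.477, Egln3 0.99997, limma), the 4 CD71/CD24a libraries alone 1254 and 2, and leaving out each library 132 to 1253 and 2 in every case. With DMOG 2 genes and 0 members were called; a pseudocount of 0.1 and no filter each gave 0, summed records 5, the 4 libraries alone 139 and 2, and leaving out each library 2 to 139 and 0 to 2. Leaving out either CD71 library gave the Dex and DMOG estimates of the 4 CD71/CD24a libraries alone, so these settings are not separate. No replicate block was run for Dex and DMOG only. With DMOG that setting kept the sort and left out Dex as a covariate, so it does not test the block. It gave 2 genes and 0 members, as before. The sort difference called 5165 genes and 4 members, and 2182 to 6264 and 2 to 6 without each library. Dex by sort called 575 and 2; no filter gave 34 and 0, and a pseudocount of 0.1 and summed records each gave 1 member. Members past 2-fold between CFU-E and Ter119-positive cells were 1, and 2 with a pseudocount of 0.1 and 6 without the factor; between BFU-E and Ter119-positive cells 3, and then 5 and 7. Leaving out the factor scales every gene of a library alike (in the erythroblasts the median of all genes moved from -0.21 to -1.30 against CFU-E and from -0.40 to -1.38 against BFU-E), and by that scaling alone the signs turned for Hif3a (-1.23 from CFU-E, -1.14 from BFU-E), Arnt (-0.18, -0.029), Hif1an (-1.24, -1.09) and Egln1 (-1.06 from BFU-E), and that of Hif1an between fresh and cultured BFU-E was -0.036. Uncalled values near 0 changed sign. With Dex they ranged, without each library, from -0.16 to 0.0084 (Hif1a), -0.0054 to 0.065 (Arnt), -0.050 to 0.20 (Egln2) and -0.033 to 0.11 (Vhl), and the 4 libraries alone gave 0.0084, -0.050 and -0.033 for Hif1a, Egln2 and Vhl. With DMOG they ranged from -0.12 to 0.080 (Hif1a), -0.11 to 0.012 (Arnt), -0.012 to 0.16 (Vhl) and -0.063 to 0.067 (Hif1an), and for the sort from -0.052 to 0.20 (Vhl). The cause of these changes was not tested. Depth limits Epas1 (0 to 35 reads) and Egln3 in CFU-E and erythroblasts (15 and 8 reads).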
